A study of Mus musculus with 4 samples.

Results

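Glycolysis and the response to low oxygen were followed through 35 genes, chosen as a fixed list and taken as named rows of a count matrix of 24783 genes. The list holds 18 glycolytic enzymes, 6 transporters of glucose or lactate with their chaperone, and 11 hypoxia-inducible factors, regulators and targets. All 35 genes were present in the matrix.

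Glycolysis splits glucose to pyruvate, and lactate dehydrogenase can turn pyruvate into lactate even where oxygen is plentiful. Photoreceptors are known for such aerobic glycolysis, and they depend on the retinal pigment epithelium (RPE), which passes them glucose from the choroid and takes up their lactate. Hypoxia-inducible factors (HIF) are transcription factors whose alpha subunits are marked for destruction by oxygen-dependent prolyl hydroxylases. When oxygen falls they bind ACGTG or related letters in front of many glycolytic genes, among others.

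The study measured retina and choroid of wild-type mice by droplet single-cell RNA sequencing, in 1 library per group. Young mice, aged 6 to 8 weeks, and aged mice, older than 18 months, were taken either without lesions (the 2 control groups) or 3 days after laser burns, which bring on choroidal neovascularisation (CNV, the 2 lasered groups). Its stated aim was the infiltration of immune cells and the relation of natural killer cells to neutrophils. Rods had been depleted from the retina through CD73, retina and choroid suspensions were mixed, and how many animals entered a library was not stated in the labels.

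The libraries held 6676 to 11427 cells and 50848238 to 111908519 UMIs (counted RNA molecules), with median UMIs per cell of 2593 in young control and between 6427.5 and 7223 in the others. Libraries shared 14 to 29 cell barcodes pairwise, at most 0.359% of the smaller one. Clustering gave 63 clusters, of which marker genes named 23 classes, here called "-like". A level is given in CPM, the gene's UMIs per 1000000 UMIs of a class, and a fold is the ratio of CPM within a class. Where 4 values stand in a row they belong to the young control, the young CNV, the aged control and the aged CNV library. The 95% intervals take account of counting error alone. With 1 library per group there was no replicate spread and no test, and a library, its animals and its condition cannot be told apart. A ratio is counted as higher or lower when it reached 1.5-fold in a gene with at least 100 UMIs over both libraries, in a class of at least 20 cells in each. In classes of summed cells, a change in each cell and a change in which cells make up the class cannot be told apart, except where single clusters are given.

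The letters ACGTG, a form of the HIF core, were searched on either strand within 250 bases before a start site. They stood in 17 of the 31 members (54.8%) that RefSeq's GRCm38.p6 promoter table holds. Over all genes of the table the share was 4998 of 27025 (18.5%), and over all its promoters 5444 of 32851 (16.6%), while 20 of 44 promoters of members (45.5%) held them. The last 150 bases before the start are shown for 5 members with the letters, whose levels the results below turn on. They are also shown for Gapdh, which has no ACGTG in 250 bases. Capitals mark ACGTG and its reverse complement CACGT, and CACGTG contains both, overlapping. The related letters GCGTG were not searched, and the Gapdh stretch holds them. The stretches are chr7:46845654-46845803 on the plus strand for Ldha, chrX:106186950-106187099 plus for Pgk1, chr4:119108595-119108744 plus for Slc2a1, chr7:138909507-138909656 minus for Bnip3, chr12:73907717-73907866 plus for Hif1a and chr6:125165774-125165923 minus for Gapdh, each in 5′ to 3′ order of its gene.
Ldha: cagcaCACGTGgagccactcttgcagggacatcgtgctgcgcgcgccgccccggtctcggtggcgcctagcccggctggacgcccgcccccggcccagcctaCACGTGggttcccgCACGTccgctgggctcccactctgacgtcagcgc
Pgk1: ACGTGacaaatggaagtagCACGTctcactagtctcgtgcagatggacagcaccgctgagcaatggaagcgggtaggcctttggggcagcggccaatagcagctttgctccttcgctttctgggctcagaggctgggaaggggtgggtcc
Slc2a1: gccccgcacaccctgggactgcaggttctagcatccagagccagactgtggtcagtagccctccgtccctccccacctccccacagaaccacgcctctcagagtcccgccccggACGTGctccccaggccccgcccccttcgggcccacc
Bnip3: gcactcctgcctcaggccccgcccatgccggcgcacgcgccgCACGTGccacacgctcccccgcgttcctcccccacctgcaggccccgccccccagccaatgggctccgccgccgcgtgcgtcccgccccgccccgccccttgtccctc
Hif1a: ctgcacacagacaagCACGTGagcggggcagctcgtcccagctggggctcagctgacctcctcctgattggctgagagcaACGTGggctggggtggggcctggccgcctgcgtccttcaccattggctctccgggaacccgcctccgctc
Gapdh: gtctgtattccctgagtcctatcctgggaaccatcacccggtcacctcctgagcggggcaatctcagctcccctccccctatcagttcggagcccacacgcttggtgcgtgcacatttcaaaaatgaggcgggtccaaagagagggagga

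The letters began at -145, -144, -48, -47 and -34 from the start of Ldha, at -150 and -131 for Pgk1, at -36 for Slc2a1, at -108 and -107 for Bnip3, and at -135, -134 and -70 for Hif1a. Ldha has a second promoter in the table, which holds none. Tpi1, Mif, Aldoc, Hk1 and Pfkp also lacked them, and Slc2a3, Bsg, Ndrg1 and Epas1 had no entry. A match here is a stretch of letters and not a site of binding.

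Summed over the 18 enzymes, retinal neurons, RPE-like and Müller-glia-like cells held much glycolytic RNA, as did microglia-like cells after the laser (7046 CPM in young and 6453 in aged mice), and stromal and vascular cells held less. Cone-like cells held 8447, 7714, 6252 and 6489 CPM. In the same order of libraries bipolar-like cells held 7628, 8621, 4392 and 6068 CPM, and rod-like cells 6923, 7650, 5022 and 6638. RPE-like cells held 5610, 5567, 5044 and 7552 CPM and were highest in aged CNV. Endothelial-like cells held 1847, 1954, 1302 and 2267 CPM and fibroblast-like cells 1826, 1662, 1563 and 1864. In each of these 6 classes aged control was the lowest of the 4 libraries.

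**Figure D1:**
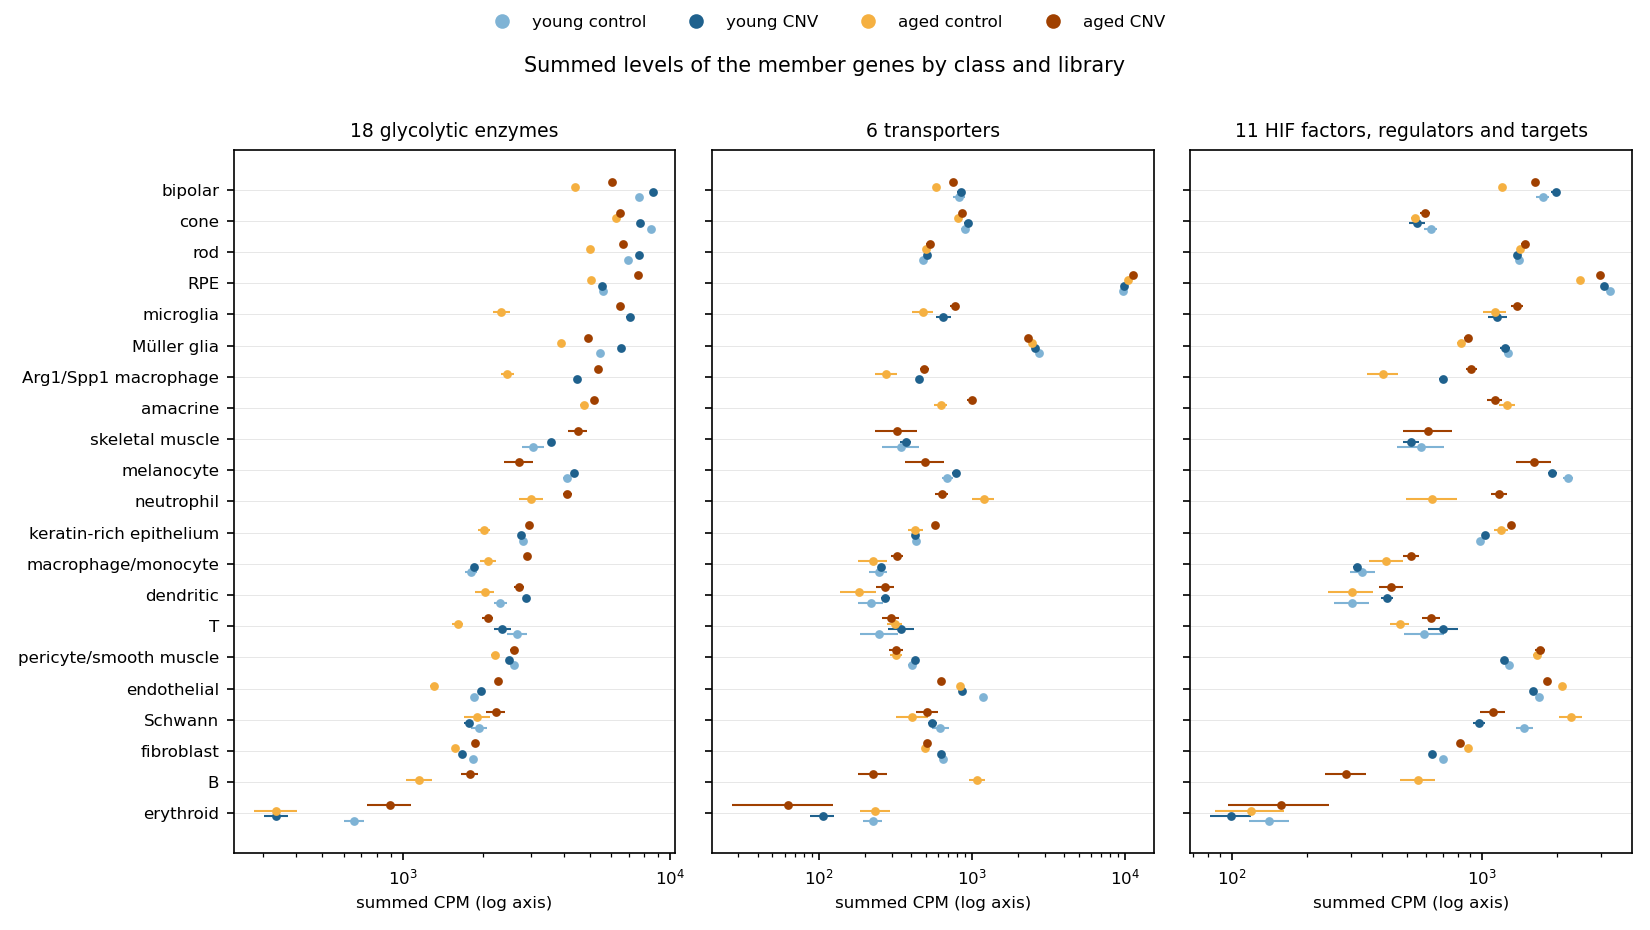
Summed CPM of enzymes, transporters and HIF genes (3 panels, logarithmic axes) in each class, with 1 point per library and bars for 95% Poisson intervals. Enzymes lie between 4392 and 8621 CPM in cone-like, bipolar-like and rod-like cells, and transporters are highest in RPE-like cells at 9684 to 11213 CPM.

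The enzymes of the upper pathway were split between classes by isozyme. Hexokinase commits glucose to the cell, and its Hk2 form made up 69.8%, 64.7%, 71.8% and 58.2% of Hk1 and Hk2 UMIs in cone-like cells. In rod-like cells the Hk2 share was 68.5%, 50.3%, 55.5% and 42.1%. Both photoreceptor classes kept far larger shares than bipolar-like cells, at 8.80% to 12.3%, or endothelial-like cells, at 4.66% to 15.1%. Rod RNA outside rods differed between libraries, as given below, and its part in these shares was not tested. A large share was not limited to photoreceptors. Fibroblast-like cells had 50.1%, 59.1%, 65.6% and 69.3%, macrophage/monocyte-like cells 65.2% in young CNV, and keratin-rich epithelium-like cells 82.2% in aged CNV. Among phosphofructokinases, which set the pace of the pathway, Pfkp supplied 78.5%, 74.2%, 83.0% and 81.1% of UMIs in bipolar-like cells. In RPE-like cells Pfkp supplied 31.1%, 33.7%, 31.8% and 46.0% (42.4% to 49.6%), and Pfkl, the liver form, 56.0%, 52.9%, 54.5% and 41.4%. Pfkm, the muscle form, stayed low, with 97 and 96.4 CPM in amacrine-like cells of the aged libraries and 29.2 to 56.5 CPM in cone-like cells.

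Aldoc marked Müller-glia-like cells among aldolases. It made up 56.5%, 58.6%, 61.5% and 66.7% of Aldoa and Aldoc UMIs there, against 9.0% to 10.9% in rod-like cells. Eno1, the widely expressed enolase, was highest in Müller-glia-like cells in every library, at 1555, 2128, 1324 and 1197 CPM. Eno2, the neuronal enolase, was highest in cone-like cells at 248, 230, 231 and 228 CPM, where it formed 32.5% to 41.2% of enolase UMIs, and it formed 0.966% to 3.02% in Müller-glia-like cells. Bipolar-like cells led for Tpi1, which interconverts the triose phosphates, at 759, 921, 423 and 668 CPM. Pgam1, the mutase of the lower pathway, reached 813, 945, 491 and 718 CPM in these cells, and in aged control amacrine-like cells stood at 495.

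Lactate dehydrogenase differed between photoreceptors and the neighbouring epithelium. Ldha, the form that favours lactate production, made up 96.3%, 96.4%, 92.8% and 90.1% of Ldha and Ldhb UMIs in rod-like cells and 91.2%, 91.3%, 89.3% and 87.6% in cone-like cells. In RPE-like cells it made up 8.71% (7.82% to 9.66%), 10.4% (9.19% to 11.7%), 7.70% (6.99% to 8.46%) and 16.5% (15% to 18.2%), so that the aged CNV library stood above the others. Müller-glia-like cells lay between, at 43.1%, 44.3%, 31.0% and 33.5%. Fibroblast-like cells had 63.9%, 77.4%, 61.3% and 68.6%, higher in the lasered library at both ages. The cluster led by Clec3b made up 20.9%, 44.3%, 12.1% and 35.2% of these cells. With cells thinned to 1000 UMIs the Ldha shares of fibroblast-like cells were 63.9%, 71.1%, 62.2% and 64.3%. UMIs are not corrected for how well each transcript is captured, so these shares compare classes and libraries rather than the isozymes themselves.

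**Figure D2:**
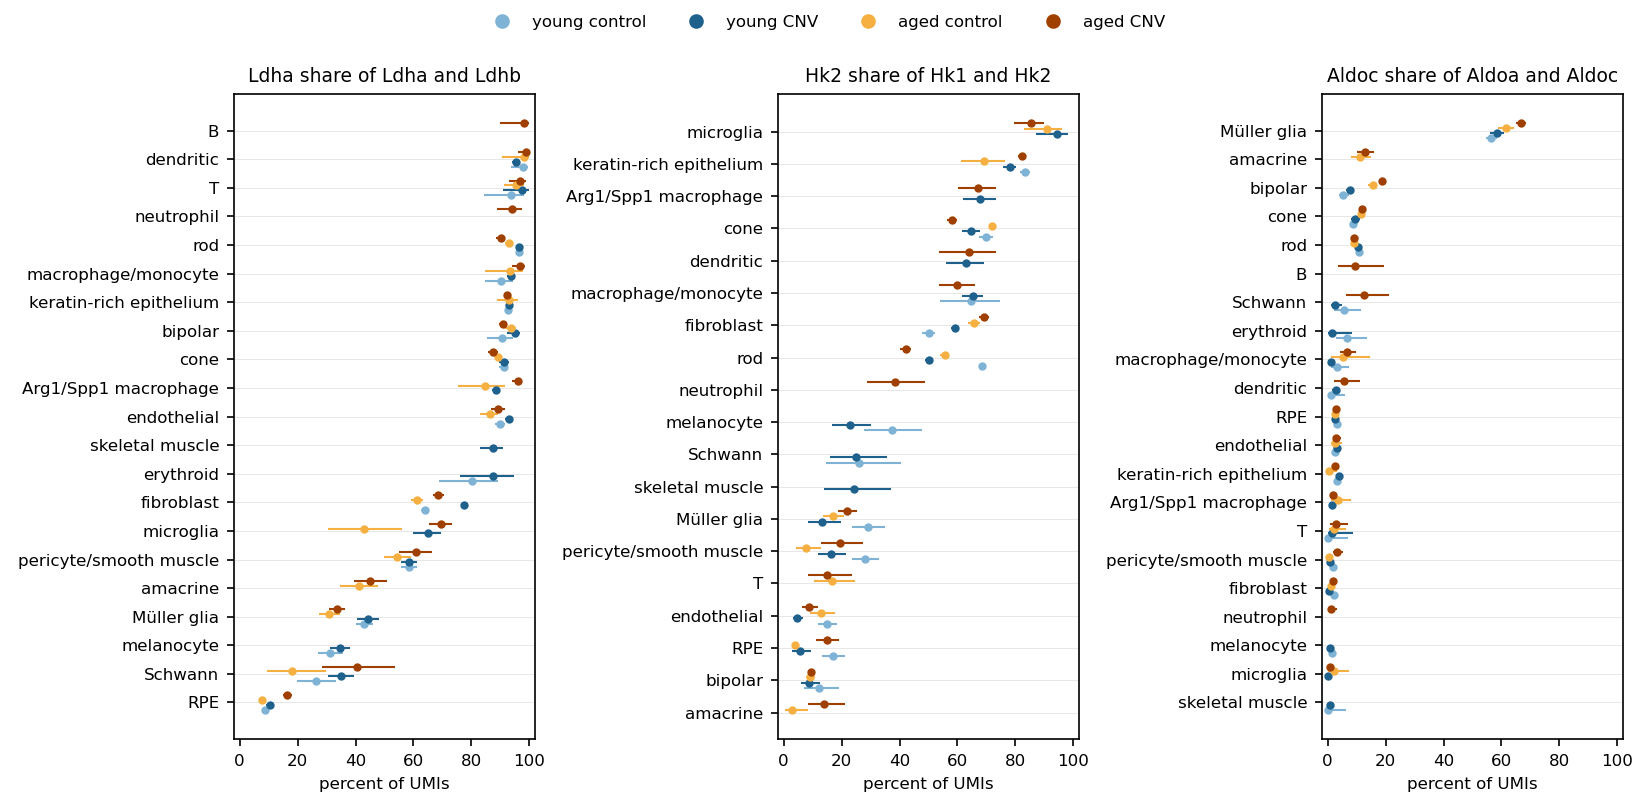
Percent of family UMIs taken by Ldha, Hk2 and Aldoc in each class, 1 point per library with 95% Clopper-Pearson intervals. Ldha takes over 87% in rod-like and cone-like cells and under 17% in RPE-like cells, and Aldoc exceeds 56% in Müller-glia-like cells.

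Of the 6 transporter genes 4 were highest in RPE-like cells in every library. Slc2a1, the main glucose carrier of barrier cells, reached 753, 911, 1110 and 1028 CPM there, followed by endothelial-like or Müller-glia-like cells. Slc16a1, a carrier of lactate and pyruvate, reached 654, 617, 962 and 744 CPM. Slc16a8, the lactate carrier known from the RPE, reached 1978, 1943, 1343 and 1231 CPM. Bsg, the chaperone that brings these lactate carriers to the membrane, reached 6297, 6410, 6976 and 8209 CPM. As a background for free RNA from broken cells, Slc16a8 outside the RPE is shown: rod-like cells held 5.73, 2.28, 9.76 and 2.28 CPM and fibroblast-like cells 5.50, 1.78, 7.44 and 2.36. Other classes held more. The highest class after RPE-like cells was bipolar-like at 32.8 CPM in young control and melanocyte-like at 27.0 in young CNV. In aged control it was B-like at 88.8 CPM, and in aged CNV amacrine-like at 24.4.

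Slc16a3 and Slc2a3, the lactate and glucose carriers of leukocytes and other highly glycolytic cells, were scarce in RPE-like cells, where Slc16a3 made up at most 0.185% of its family's UMIs. Neutrophil-like cells of aged control held 567 CPM of Slc16a3 and 317 of Slc2a3, and those of aged CNV 153 and 105. Arg1/Spp1-macrophage-like cells held 31.4 CPM of Slc16a3 in young CNV, and 10.0 and 58.8 in the aged libraries. T-like cells, which numbered 25, 50, 156 and 173, held 54.9, 52.6, 119 and 76.7 CPM of Slc2a3, highest in aged control. Retinal neurons held Slc2a3 too, with bipolar-like cells at 42.6 and 59.5 CPM in the young libraries and amacrine-like cells at 140 in aged CNV.

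The 2 HIF alpha subunits lay in different cells. Hif1a was highest in rod-like cells in every library, at 557, 581, 704 and 630 CPM, and reached 367, 376, 458 and 603 CPM in bipolar-like cells. Epas1, the alpha subunit known from vessels, was highest in endothelial-like cells at 1036, 888, 1456 and 1069 CPM and next in pericyte/smooth-muscle-like cells at 646, 627, 785 and 895. Egln3, an oxygen-sensing prolyl hydroxylase, was highest in keratin-rich epithelium-like cells at 144, 125, 261 and 314 CPM, and Egln1, its more widespread relative, led in no class throughout. Its level was 93.3, 84.8, 157 and 175 CPM in RPE-like cells, higher in both aged libraries.

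HIF targets were spread over the tissue. Ndrg1, a stress-induced gene with a role in myelin, was highest in Schwann-like cells at 945, 562, 1750 and 689 CPM. Bnip3, which marks mitochondria for removal, held 131, 152, 90.1 and 111 CPM in bipolar-like cells, and Ankrd37, an ankyrin-repeat gene, 123, 121, 66.3 and 77.4. Adm, the vasodilator adrenomedullin, held 223 and 158 CPM in melanocyte-like cells of the young libraries and 63.6 in those of aged CNV. P4ha1, a collagen prolyl hydroxylase, held 187, 205, 190 and 181 CPM in bipolar-like cells and varied little. Mif, a cytokine, was highest in RPE-like cells at 2698, 2564, 1581 and 2110 CPM. Pdk1, which holds pyruvate back from mitochondria, was sparse, at 10.1, 10.1, 31.8 and 34.3 CPM in endothelial-like cells.

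In the 14 classes with all 4 libraries, 192 enzyme values had at least 200 UMIs, and aged control was the lowest library in 107 of them (55.7%) and aged CNV the highest in 88 (45.8%). Over all genes the same libraries were lowest in 26.1% and highest in 26.4% of 97199 values. Gapdh was lowest in aged control in 13 of 14 classes, Pgk1, Ldha and Mif each in 12 of 13, and Gpi1 in 10 of 12. Aldoa was lowest there in 9 of 13, Aldoc in 5 of 7, Tpi1 in 8 of 12, Eno1 in 5 of 12 and Pfkl in 4 of 10. Other enzymes were seldom lowest there, namely Hk1 in 0 of 11 classes, Pfkm in 0 of 6, Pfkp in 1 of 12 and Eno2 in 1 of 5. Hif1a was lowest there in 1 of 12 classes and highest in 7, and Epas1 was lowest in 0 of 7 and highest in 5. Among the 89 HIF values aged CNV was highest in 35 (39.3%, against 26.4% over all genes) and young CNV lowest in 35 (39.3%, against 32.4%).

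**Figure D3:**
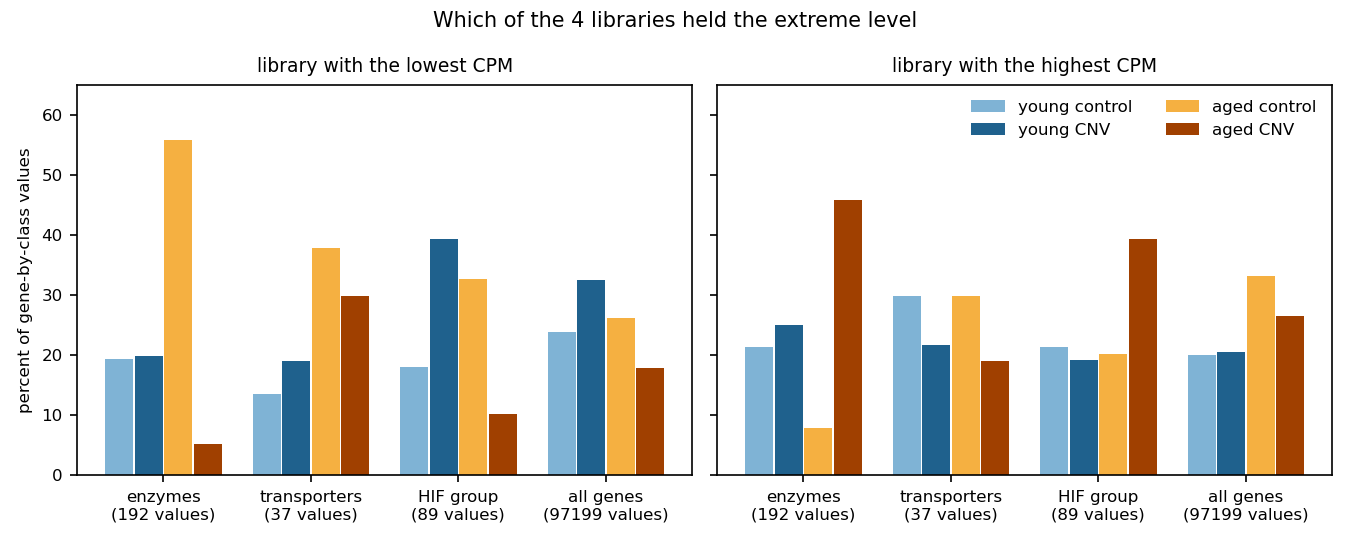
Percent of member values in which each library was the lowest or the highest of the 4, for each role and for all genes, over 14 classes and values of at least 200 UMIs. Aged control is lowest in 55.7% of enzyme values, against 26.1% over all genes.

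Aged control, the lowest library in 55.7% of the enzyme values, enters both the aged laser comparison and the comparison of controls by age. The 4 comparisons below share libraries in this way, so their ratios are not independent of each other.

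In young mice the laser left most of these genes within 1.5-fold. Of 341 member values in 16 classes, 11 were higher in young CNV, where the share over all genes was 6.59%, and 25 were lower, where it was 6.92%. RPE-like cells had 0 higher and 0 lower of 25 members, against 3.22% and 3.87% of all genes in the class. Rod-like cells had 0 and 0 of 29 (all genes 9.05% and 7.18%), and keratin-rich epithelium-like cells 0 and 0 of 28 (2.05% and 3.43%). Enzymes made up 8 of the higher and 13 of the lower values. Skeletal-muscle-like cells, where 26.2% of all genes were higher and 15.6% lower, held 5 of those 8, among them Pgk1, the kinase that makes ATP in the lower pathway, at 80.0 CPM without and 213 CPM with lesions (2.66-fold). With trimmed-mean scaling the split was 14 higher and 18 lower, against 8.22% and 5.41% of all genes.

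Slc2a1 in endothelial-like cells was lower after the laser in both ages, at 451, 223, 425 and 177 CPM. The control libraries stood together, 2.02-fold above the lasered one in young and 2.40-fold in aged mice. Endothelial-like cells fell into 2 clusters, and the smaller held 87 of 521 cells in young control, 263 of 730 in young CNV, 18 of 414 in aged control and 83 of 453 in aged CNV. Within the larger cluster, led by Plvap and Igfbp3, Slc2a1 was at 509 and 289 CPM in the young libraries, 1.76-fold lower (1.65 to 1.88), and at 433 and 196 CPM in the aged ones, 2.21-fold lower (2.0 to 2.45). Hk2 in endothelial-like cells was at 14.5 CPM in young control and 3.62 in young CNV, 4.01-fold lower, while the aged libraries held 12.1 and 11.8. Summed RNA of 10 rod genes, a measure of free rod RNA, was at 1778, 253, 189 and 175 CPM in these cells. Rod-like cells held 687 and 469 CPM of Hk2 in the young libraries. The part of free rod RNA in the Hk2 fold was not tested.

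Fibroblast-like cells held 9 of the 25 lower values in young mice, and 0 of their 35 members were higher, against 10.6% and 6.48% of all genes in the class. Epas1 was at 116, 65.6, 198 and 117 CPM, 1.77-fold lower after the laser in young and 1.70-fold in aged mice. That difference was smaller within clusters. In the cluster led by Pappa2 and Pgf, Epas1 was at 268 and 250 CPM in the young libraries and 405 and 358 in the aged ones, and in the cluster led by Clec3b, which held 384 and 1436 cells in the young and 142 and 519 in the aged libraries, it was at 33.6 and 23.3 CPM and at 34.0 and 40.1. Ndrg1 in Schwann-like cells was 1.68-fold lower after the laser in young and 2.54-fold in aged mice (945, 562, 1750 and 689 CPM), with 65, 133, 30 and 35 cells.

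**Figure D4:**
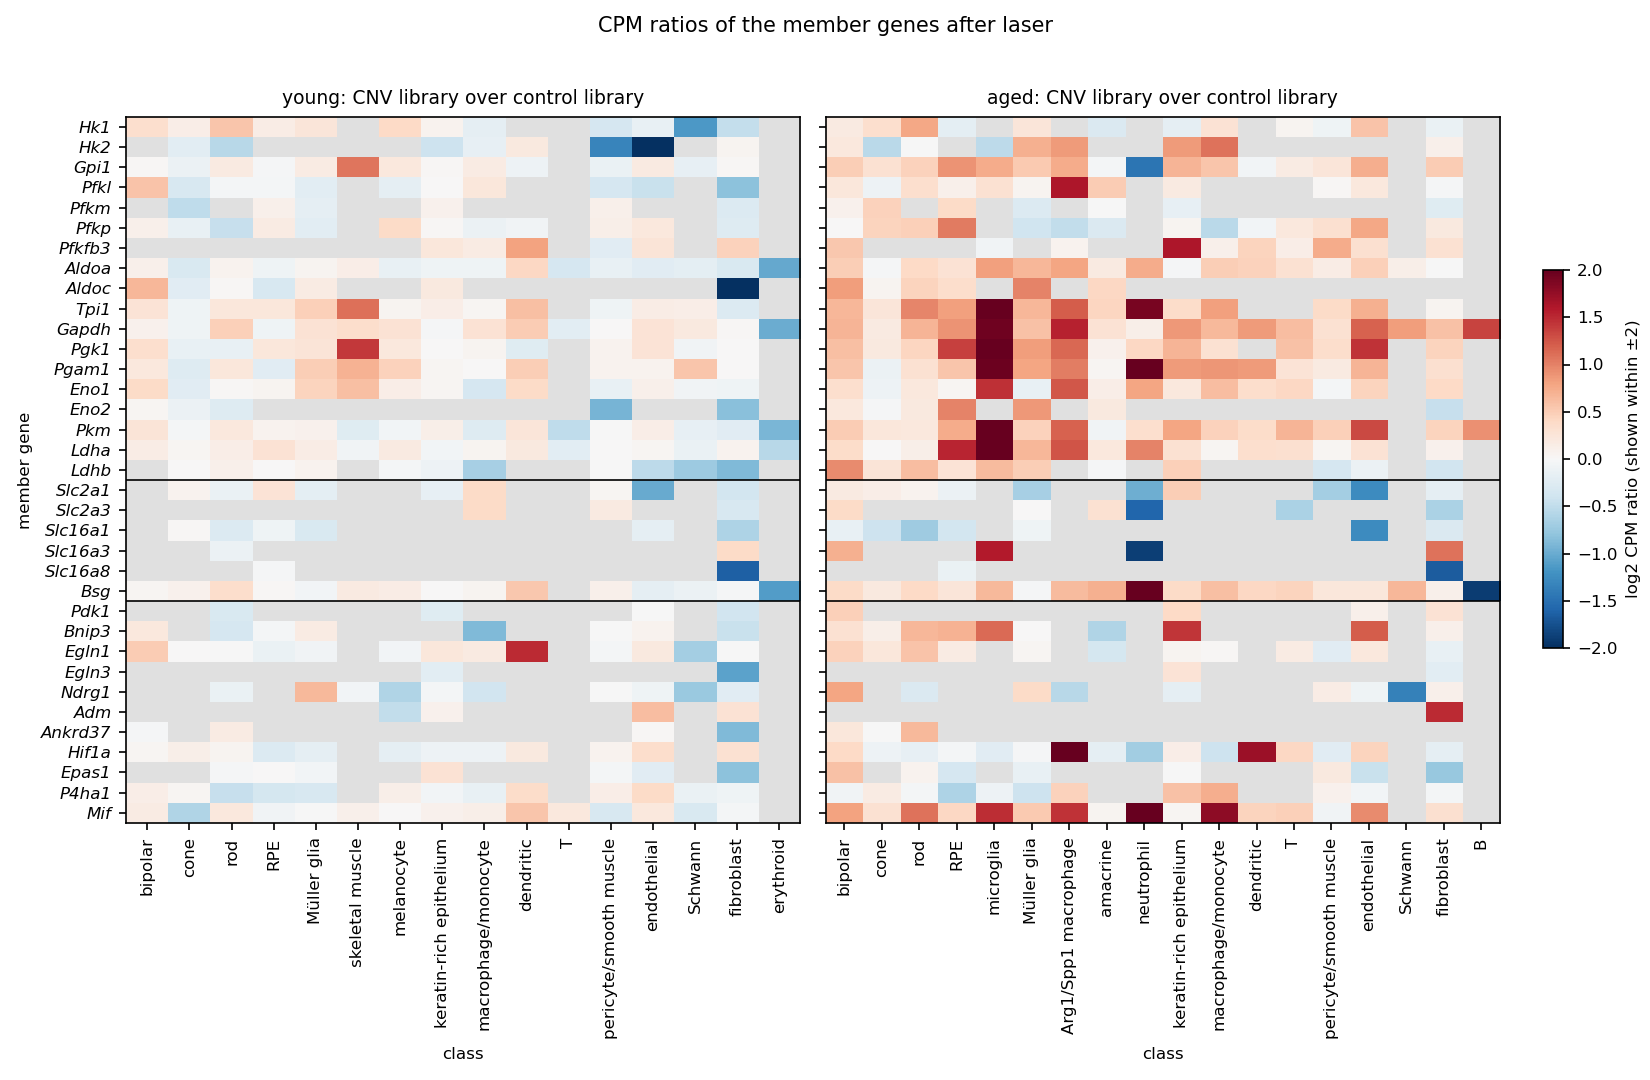
Log2 ratio of CPM, lasered over control, for each member (rows, by role) and class (columns) in young and aged mice; grey cells had under 100 UMIs or a library at 0. Red is higher after laser, and 79 enzyme values were past 1.5-fold higher in aged mice and 8 in young mice.

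In aged mice more enzyme values were past 1.5-fold higher after the laser than lower. Of 374 member values in 19 classes, 108 were higher in aged CNV, where the share over all genes was 10.3%, and 18 were lower, where it was 6.92%. Of 233 enzyme values 79 were higher and 1 lower. Transporters went both ways, with 9 higher and 12 lower of 47, and HIF genes had 20 higher and 5 lower of 94. In classes of at least 100 cells in both libraries, a limit chosen after the data were seen, members counted 47 higher and 10 lower of 235, against 8.0% and 5.05% of all genes, and enzymes 36 and 0 of 140. Whether the young and aged laser ratios differ was not tested.

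Gapdh, the dehydrogenase at the centre of the pathway, was higher in 13 of 18 classes, Tpi1 in 9 of 14, Pgam1 in 8 of 16, Pgk1 in 7 of 15 and Pkm in 7 of 17. Cone-like cells had 0 higher and 0 lower of 26 members (all genes 4.06% and 2.23%), amacrine-like cells 1 and 1 of 22 (6.3% and 4.22%), and fibroblast-like cells 2 and 3 of 33 (7.62% and 6.27%). Of the members with ACGTG in 250 bases 51 of 184 values (27.7%) were higher, and of those without it 50 of 149 (33.6%).

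Other RNA also differed between the libraries. The share of ribosomal protein RNA was higher in aged CNV than in aged control in 14 of 19 classes, with class medians of 6.68% and 5.20%. It was higher in young CNV than in young control in 14 of 16 classes, with medians of 11% and 8.14%. Summed RNA of 10 rod genes outside rods and cones, a measure of free rod RNA, had medians of 2356, 266, 267 and 128 CPM. Over all named classes this RNA was higher in the lasered library in 1 of 16 in young and 6 of 19 in aged mice. Their part in the enzyme ratios was not tested. Gapdh, Pgk1, Tpi1, Eno1, Ldha and Mif have near-identical copies elsewhere in the genome, to which reads can be assigned, and their levels are uncertain to that degree.

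RPE-like cells formed 1 cluster of 479, 334, 1030 and 321 cells, led by Ttr, Rgr and Rpe65. They had 9 higher and 1 lower of 26 members in aged mice, against 5.84% and 6.88% of all genes in the class. Ldha was at 78.0, 95.6, 62.4 and 180 CPM, and aged CNV stood above the other 3. Its aged laser ratio was 2.88-fold (2.49 to 3.33). Pgk1 was at 324, 377, 296 and 760 CPM, with an aged ratio of 2.57-fold (2.40 to 2.75). Pfkp was at 49.2, 54.8, 87.5 and 179 CPM, with an aged ratio of 2.05-fold (1.79 to 2.34). The median log2 ratio of the enzymes was 0.65, against -0.04 over all genes of the class. Ldhb, which dominates in this epithelium, was at 748 and 909 CPM in the aged libraries and did not reach 1.5-fold, and P4ha1 was 1.53-fold lower.

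Müller-glia-like cells had 9 higher and 1 lower of 28 members in aged mice, against 12.9% and 6.23% of all genes in the class. Aldoc was at 510, 574, 274 and 542 CPM, with aged control below the other 3 and an aged laser ratio of 1.98-fold (1.82 to 2.16). Within the main Müller-glia-like cluster that ratio was 2.04. Slc2a1 was at 323, 283, 333 and 210 CPM, 1.58-fold lower in aged CNV. Eno1, at 1324 CPM in aged control and 1197 in aged CNV, was not higher after the laser, and neither was Pfkp.

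Rod-like cells had 7 higher and 1 lower of 27 members in aged mice, against 9.85% and 4.12% of all genes, and bipolar-like cells 8 and 0 of 32, against 9.03% and 2.69%. Tpi1 in rod-like cells was at 196, 229, 138 and 273 CPM, a 1.98-fold aged ratio. In rod-like cells the libraries rest on different clusters: the cluster led by Pdc held 2881 of 5828 cells in young control, that led by Gm26954 1698 of 2818 in young CNV, and that led by Dpp10 718 of 1219 in aged control and 347 of 754 in aged CNV. Within the Dpp10 cluster Tpi1 was 1.96-fold higher after the laser, and within the Gm26954 cluster 2.35-fold (1.86 to 2.97). Hk1 was at 316, 464, 392 and 673 CPM, 1.47-fold higher after the laser in young and 1.72-fold in aged mice. Within the Gm26954 cluster these ratios were 1.51 and 2.08. Hk2 in rod-like cells, at 687, 469, 489 and 489 CPM, was highest in young control. Gapdh was at 1323, 1842, 764 and 1219 CPM in rod-like cells, and its young ratio was 0.79 within the Pdc cluster.

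Endothelial-like cells had 9 higher and 2 lower of 25 members in aged mice, against 8.52% and 6.78% of all genes in the class. Pkm, the pyruvate kinase that ends the pathway, was at 204, 225, 141 and 351 CPM and was 2.49-fold higher (2.21 to 2.80) in aged CNV than in aged control. Pgk1 was at 80.7, 98, 41.7 and 113 CPM (2.72-fold, 2.19 to 3.39) and Gapdh at 441, 533, 253 and 575 (2.27-fold, 2.08 to 2.49). Within the larger cluster the same ratios were 2.66, 2.88 and 2.38. The lower members were both transporters, Slc2a1 as above and Slc16a1 at 45.8 and 19.2 CPM, 2.39-fold lower. Adm in fibroblast-like cells, at 17.6, 21.5, 11.2 and 31.6 CPM, was 2.82-fold higher in aged CNV than in aged control, and 1.75-fold within the Clec3b cluster.

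**Figure D5:**
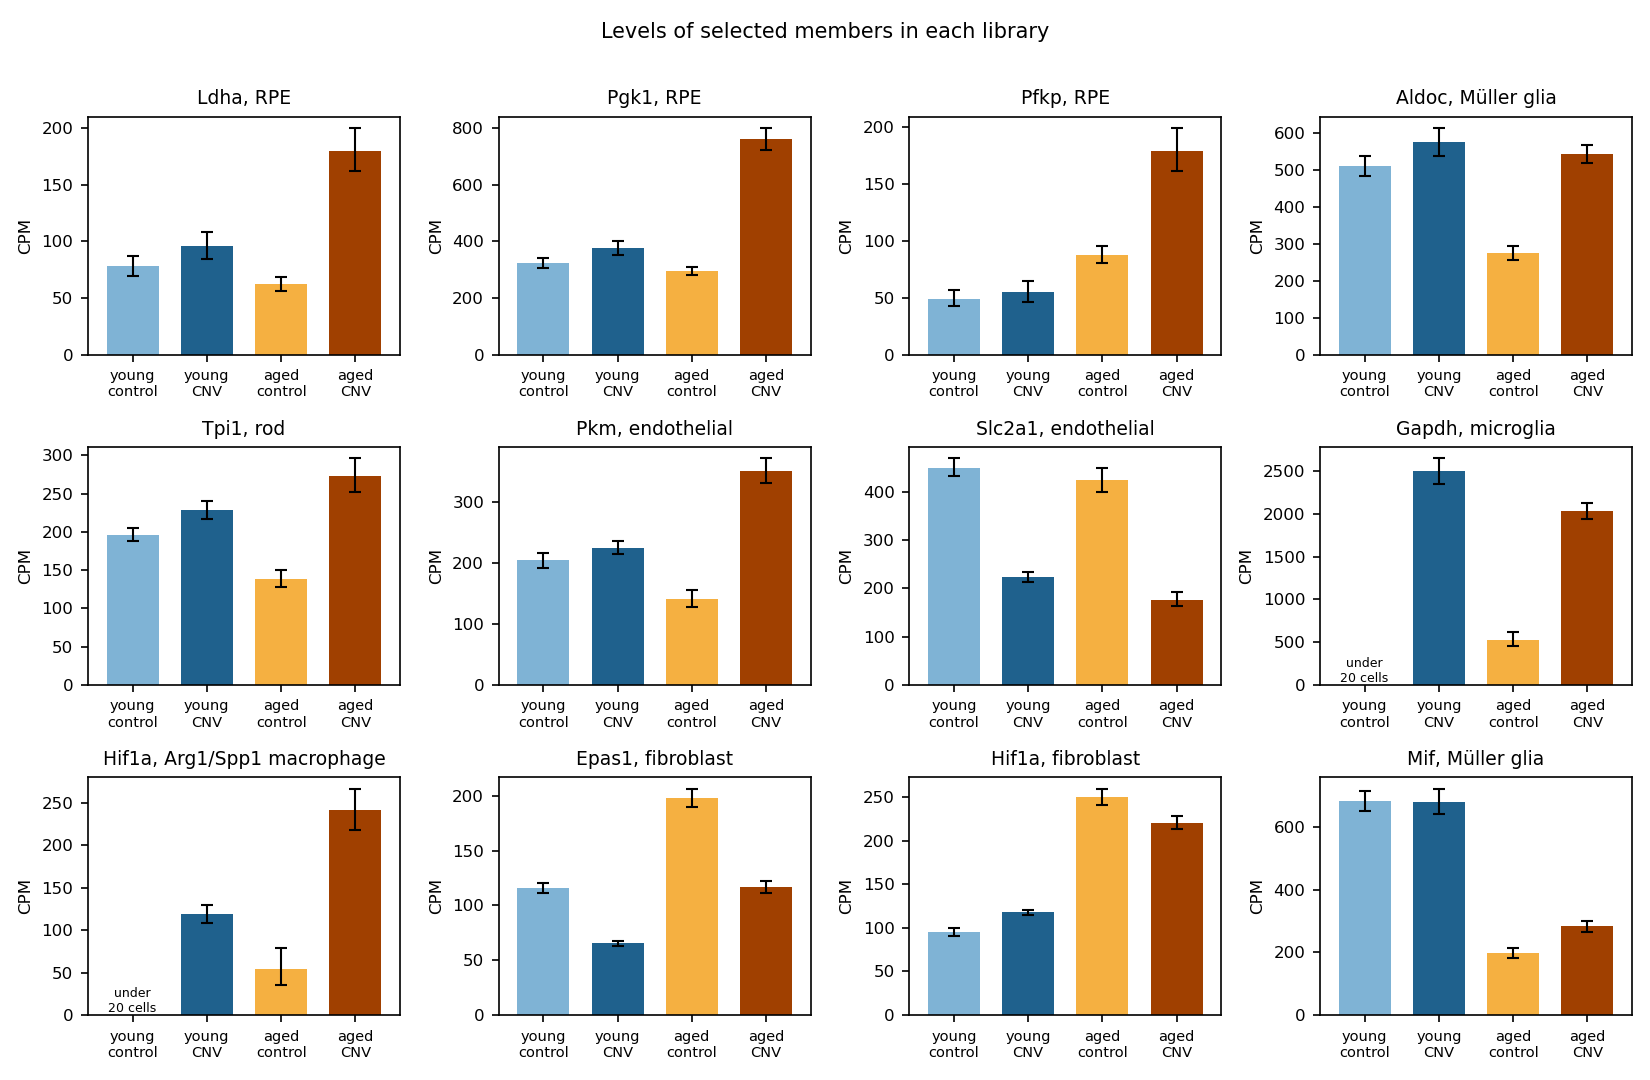
CPM of selected members in 1 class each, with 1 bar per library and 95% Poisson intervals (12 panels, axes from 0; bars absent where a class had under 20 cells). Ldha and Pgk1 of RPE-like cells stand highest in aged CNV, at 180 and 760 CPM, and Slc2a1 of endothelial-like cells is lower in both lasered libraries.

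Myeloid classes gave the largest median enzyme ratios of the aged laser comparison, from few cells: log2 1.47 in microglia-like and 1.16 in Arg1/Spp1-macrophage-like cells, against -0.08 and 0.02 over all genes. Microglia-like cells, with 13, 21, 26 and 38 cells and led by Sall1, Siglech and P2ry12 among others, had 14 higher and 0 lower of 19 members, against 23.0% and 22.2% of all genes in the class. Gapdh was at 2499 CPM in young CNV, and the aged libraries held 529 and 2035, a 3.84-fold aged ratio (3.28 to 4.53). Pkm was at 769, 225 and 1064 CPM (4.73-fold, 3.71 to 6.10) and Ldha at 580, 85.6 and 400 (4.67-fold, 3.16 to 7.18). Both lasered libraries stood above aged control, and young control had too few cells for a level. Their ribosomal protein share, 12%, 6.94% and 9.43%, was also lowest in aged control.

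Arg1/Spp1-macrophage-like cells, named for the arginase and osteopontin they carry, numbered 1, 201, 38 and 120. They had 14 higher and 0 lower of 18 members in aged mice, against 12.5% and 11.5% of all genes in the class. Hif1a was at 119 CPM in young CNV, and the aged libraries held 54.1 and 242, a 4.47-fold aged ratio (3.02 to 6.87). Gapdh was at 567 and 1645 CPM in the aged libraries (2.90-fold), Mif at 128 and 349 (2.72-fold) and Pfkl at 24.0 and 73.9 (3.07-fold). The Pfkl share of phosphofructokinase UMIs was 20% (10.8% to 32.3%) in aged control and 50.2% (43.6% to 56.8%) in aged CNV. Macrophage/monocyte-like cells had 8 higher and 0 lower of 18, against 14.9% and 11.5% of all genes, but the libraries rest on different clusters. The cluster led by Fcgr1 and Aif1 held 8 of 39 cells in aged control and 119 of 190 in aged CNV, and that led by Cd163 and Folr2 held 14 and 20. Summed enzymes in aged CNV were at 2614 CPM in the first and 1434 in the second.

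Neutrophil-like cells, 28 in aged control and 204 in aged CNV, had 7 higher and 5 lower of 15 members, against 39.3% and 25.9% of all genes in the class. Mif was at 41.7 and 521 CPM (12.5-fold, 5.31 to 38.8), Pgam1 at 100.0 and 473 and Tpi1 at 58.3 and 218. Slc16a3 was at 567 and 153 CPM (3.70-fold lower), Slc2a3 at 317 and 105 and Gpi1 at 358 and 130. The libraries hold different cells here: 27 of the 28 aged control cells lay in the cluster led by Retnlg and S100a9, and 179 of the 204 aged CNV cells in one led by AA467197 and Acod1. Within the Retnlg cluster Slc16a3 was at 569 and 366 CPM, 1.55-fold lower (1.01 to 2.42).

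Keratin-rich epithelium-like cells, with 248, 254, 30 and 389 cells, had 10 higher and 0 lower of 28 members in aged mice, against 15.3% and 6.14% of all genes. Hk2 was at 145, 108, 146 and 263 CPM, highest in aged CNV. Ankrd37 had 0 UMIs in aged control and 17.5 CPM in aged CNV, at least 4.24-fold higher when 3 counts stand for the 0.

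Without lesions, several enzymes were lower in aged mice in many classes and others in few. Of 288 member values in 14 classes, 35 were higher in aged control, where the share over all genes was 18.2%, and 65 were lower, where it was 15.4%. Enzymes had 15 higher and 47 lower of 178, and HIF genes 17 and 12 of 74. With trimmed-mean scaling the members' split was 28 higher and 81 lower, where the shares over all genes were 13.3% and 19.3%. Aldoa, the main aldolase, was lower in 10 of 14 classes, Gapdh in 9 of 14, Mif in 8 of 10, Pgk1 in 7 of 10, Ldha in 6 of 12 and Aldoc in 4 of 6. Eno1 was lower in 0 of 11, Pkm in 1 of 12, Tpi1 in 1 of 10 and Pgam1 in 2 of 12. Hif1a was higher in 4 of 11 classes and lower in 0. The ribosomal protein share was higher with age in 1 of 14 classes and the mitochondrial share in 0 of 14. Summed RNA of the 10 rod genes was also higher in 0 of 14. Its medians outside rods and cones were 2356 CPM in young control and 267 in aged control. The part of these 3 measures in the ratios was not tested.

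Bipolar-like cells of aged mice held less of several members. Gapdh was at 2033, 2153, 766 and 1223 CPM and Mif at 838, 939, 286 and 499, with both young libraries above both aged ones. Mif in Müller-glia-like cells was at 683, 681, 197 and 283 CPM, 3.46-fold lower in aged than in young control and 2.41-fold lower in aged than in young CNV. Within the main Müller-glia-like cluster the ratios were 3.51 and 2.52. Ldha in rod-like cells, at 848, 929, 499 and 541 CPM, and in cone-like cells, at 701, 717, 450 and 455, was also lower in both aged libraries. Within the Gm26954 rod-like cluster Ldha was 1.63-fold lower between controls.

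Hif1a was higher with age in fibroblast-like cells, at 95.4, 118, 251 and 221 CPM, 2.63-fold between controls and 1.88-fold between lasered libraries. Within the cluster led by Pappa2 the ratio of controls was 2.79 and within that led by Myoc 2.58, but within the Clec3b cluster it was 1.10 (0.89 to 1.37). RPE-like cells held 133, 110, 252 and 246 CPM of Hif1a and pericyte/smooth-muscle-like cells 168, 175, 377 and 321, with both aged libraries above both young ones in each. Hk2 in fibroblast-like cells was at 51.8, 53.9, 121 and 131 CPM, and Pfkfb3, whose product activates phosphofructokinase, at 16.1, 22.1, 44.3 and 54.9. Both were higher in aged mice with and without lesions. Pdk1 in endothelial-like cells was 3.14-fold higher with age between controls and 3.41-fold between lasered libraries.

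After the laser, 107 of 404 member values in 18 classes were higher in aged than in young mice, where the share over all genes was 20.4%, and 43 were lower, where it was 12.5%. Enzymes had 65 higher and 27 lower of 248, and HIF genes 35 and 11 of 109. This split depended on the scaling: trimmed-mean scaling gave 69 higher and 72 lower, with 11.6% and 20.6% over all genes, and median-of-ratios scaling 66 and 70, with 11.9% and 20.1%. Hk1 was higher in 12 of 15 classes, Hif1a in 9 of 16, Bnip3 in 8 of 11 and Pfkp in 7 of 15. The ribosomal protein share was higher in aged than in young CNV in 1 of 18 classes. RPE-like cells had 13 higher and 1 lower of 25 (all genes 25.8% and 7.77%), with Pfkp 3.26-fold higher, and macrophage/monocyte-like cells 16 and 2 of 25 (21.3% and 9.78%). The Cd163 cluster made up 36.5% of the latter in young and 10.5% in aged CNV. Within it summed enzymes were at 1215 and 1434 CPM, and within the Fcgr1 cluster at 1812 and 2614. Bipolar-like cells went the other way with 1 higher and 11 lower of 32 (15.2% and 14.1%).

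Other genes of these pathways, 39 of glycolysis and 35 of hypoxia, were counted in the same way. In the aged laser comparison, where 10.3% of all gene values were higher and 6.92% lower, the glycolysis genes had 15 higher and 15 lower of 195 (7.69% each) and the hypoxia genes 40 (16.9%) and 21 (8.90%) of 236. Hilpda, a lipid droplet gene induced by hypoxia, was at 10.0 CPM (5 UMIs) in aged control and 142 (227 UMIs) in aged CNV in Arg1/Spp1-macrophage-like cells, 14.2-fold higher. In the same cells Vegfa, the vessel growth factor, was at 8.01 and 107 CPM (13.4-fold, from 4 and 171 UMIs), and Hmox1, which degrades haem, at 110 and 789. In endothelial-like cells Hilpda went the other way, at 150 and 50.3 CPM, 2.99-fold lower.

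In the young laser comparison, against 6.59% and 6.92% over all genes, the other glycolysis genes had 8 higher and 12 lower of 196 (4.08% and 6.12%) and the hypoxia genes 20 and 31 of 244 (8.20% and 12.7%). Angptl4, a lipase inhibitor induced by hypoxia, was at 5.37 and 30.8 CPM in endothelial-like cells, 5.75-fold higher after the laser, and Hilpda at 179 and 71.7, 2.49-fold lower. Lox, which crosslinks collagen, was at 126 and 334 CPM in fibroblast-like cells, 2.65-fold higher. Between controls of the 2 ages these lists had 28 and 15 of 167 (16.8% and 8.98%), and 29 and 46 of 202 (14.4% and 22.8%), against 18.2% and 15.4%. Angptl4 in pericyte/smooth-muscle-like cells was at 52.2 and 4.94 CPM there, 10.6-fold lower in aged mice. Between lasered libraries they had 55 and 14 of 232 (23.7% and 6.03%), and 52 and 51 of 283 (18.4% and 18.0%), against 20.4% and 12.5%. Car12, a carbonic anhydrase, was 4.74-fold higher with age in keratin-rich epithelium-like cells of controls, at 28.7 and 136 CPM, and 4.85-fold higher after the laser, at 35.3 and 171.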

How the data were processed

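What the authors deposited are raw counts: a single matrix of UMIs for 36701 cells and 24783 genes. Column names gave the 4 libraries (the prefix e was read as aged), and 0 columns were left unused. The submitters' processing notes name mm10, Seurat 4.1.1 and Cell Ranger. The version of the latter and the gene annotation were not given in the sources used here. Per cell, the lowest UMIs, 500 to 507, and a mitochondrial share under 20% show that cells had been filtered.

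Doublets, cells of a Scrublet score of at least 0.2, were removed (246 to 302 per library). The rest were clustered without integration and without the members among 2000 variable genes (40 principal components, 20 neighbours, Leiden resolution 1.0), leukocytes again on their own. A cluster name needed at least 3 markers raised by 1 or more on the log2 scale. UMIs were summed per class and library. CPM have exact Poisson, ratios exact conditional binomial and shares Clopper-Pearson intervals. Folds against 0 UMIs use 3 counts per library.

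All 35 members are named. Full values are given mainly for the 3 members per direction, class and comparison whose interval lies farthest from 1, at 0.1 or more of the CPM of the highest class. The classes and examples described were chosen after the values were seen. Ratios within 1 rod-like cluster are not reported here. The members and lists were chosen with earlier results of these data known. Promoters come from RefSeq. Calculations used scanpy 1.11.5, leidenalg 0.10.2, igraph 0.11.9, scikit-learn 1.9.0, pandas 2.3.3, scipy 1.17.1 and numpy 2.4.6 in Python 3.11.15, matplotlib 3.10.9 for figures, and edgeR 4.0.16 in R 4.3.3 for scaling factors. The ratio calculation was tested on simulated data.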

Additional observations from a re-analysis of the deposited data

How the results depend on the processing

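Counts of member values past 1.5-fold are given as higher/lower for the young laser, aged laser, age without lesions and age after laser comparisons, whose reported counts were 11/25, 108/18, 35/65 and 107/43. With cells thinned to 1000 UMIs they were 3/2, 31/4, 12/36 and 26/22, over 151, 148, 136 and 160 values. A minimum of 20 UMIs gave 32/69, 169/43, 64/100 and 173 higher, a minimum of 500 UMIs 0/9, 54/4, 20/42 and 48/25, and a fold of 2 gave 4/9, 41/8, 15/25 and 49/8. Fewer or more values are tested under these settings. In the young laser comparison a mean of CPM per cell gave 18 higher and a subtracted rod profile 27. After laser, trimmed-mean scaling gave 69/72 and median-of-ratios scaling 66/70. Alternatives chosen after seeing the data were unnamed clusters put in their best class (17 higher in the young laser comparison), classes of at least 100 cells (2 higher, then 47/10, 21/38, and 27 lower), and single clusters (31/39 in young laser, 62 higher in age without lesions). The cause of these moves was not tested beyond the number of values. The remaining counts were within 1.5 times of those reported.

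Of the named log2 ratios, 7 reversed, all with thinned cells: Tpi1 in dendritic-like cells (young laser, -0.64), Hk1 in T-like (-1.90), Aldoa in dendritic-like (2.19) and Pgk1 in keratin-rich epithelium-like cells (0.13; age without lesions), Hk2 in Arg1/Spp1-macrophage-like (-0.13) and dendritic-like cells (-0.68) and Pfkp in Schwann-like cells (-0.14; age after laser). The cause was not tested. Thinning left 143 of the named ratios within their interval and moved 134, and trimmed-mean scaling left 228 and moved 71. Across 67 pairs of class and comparison the log2 shift of that scaling, which is subtracted from each log2 ratio, lay between -0.53 and 1.40. Leaving out mitochondrial and rod genes from the totals moved 0 of 299. Depth sets how many values can be tested: a minimum of 500 UMIs left 204 of 374 in the aged laser comparison. No paired analysis was possible because each group has 1 library, so the groups share fewer than 2 replicate numbers. No replicate could be left out for the same reason.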
